A study of Homo sapiens with 13 samples.

Results

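The region described here lies on the short arm of human chromosome 9, at 9p21, and holds 8 genes: the interferon genes IFNB1 and IFNE, KLHL9, MTAP, CDKN2A, CDKN2B, the long non-coding RNA gene CDKN2B-AS1 and DMRTA1. The 8 genes were chosen by name from the 38690 protein-coding and lncRNA genes of GENCODE release 44 on hg19 (chromosomes 1 to 22 and X). The choice was by name and position and used no peak, but it was made with earlier results of these data known. They span 1.38 Mb (chr9:21077103-22455739), and with 500 kb added on either side the region measured 2.38 Mb (chr9:20577103-22955739). ChIP-seq, which sequences the DNA bound to an immunoprecipitated protein, had been performed on untreated MDA-MB-231 cells grown under standard conditions. MDA-MB-231 is an established triple-negative breast cancer cell line with a mesenchymal (basal B) character. The 13 libraries were made with antibodies against H3K4me1, H3K4me3, H3K27ac, RNA polymerase II (Pol II) and CTCF (2 libraries each), against p300/CBP (1 library), and from Input chromatin (2 libraries). The deposited files held 1 list of peak positions per antibody, with the replicates merged beforehand, so none of the values below has a replicate error and no test between samples was possible. Input had no peak list, and the read depth behind the 6 lists is unknown.

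The members belong to several pathways that meet at this locus by position only. CDKN2A encodes p16INK4a, an inhibitor of the cyclin D kinases CDK4 and CDK6, and, from a separate first exon, p14ARF, which restrains the ubiquitin ligase MDM2. CDKN2B encodes the related inhibitor p15INK4b, and CDKN2B-AS1 (ANRIL) is transcribed antisense to it. MTAP recycles methylthioadenosine, a by-product of polyamine synthesis, in the methionine salvage pathway. IFNB1 and IFNE sit at the ends of the type I interferon gene cluster, KLHL9 is a substrate adaptor of the CUL3 ubiquitin ligase, and DMRTA1 encodes a DM-domain transcription factor. CDKN2A is among the genes most often lost in cancer, frequently together with its neighbours, and the MDA-MB-231 line is known to lack it. H3K4me3 and Pol II mark active gene starts, H3K27ac and p300/CBP active promoters and enhancers, H3K4me1 mainly enhancers, and CTCF binds its own DNA motif in most cell types whether or not the neighbouring genes are active.

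No peak of any of the 6 lists was found at any of the 8 members. All of them lay inside 1 continuous stretch of 4.53 Mb without a peak (chr9:20816151-25350150), which covered 100% of the members' span and 90.0% of the region and ran 2.39 Mb further towards the centromere. The remaining 239 kb of the region, at its telomeric end, held all 25 of its peaks. The stretch contained 24 whole protein-coding genes, 19 lncRNA genes and 4 miRNA genes. Of the protein-coding genes, 23 had a canonical transcription start site (TSS) in the annotation, and IFNA6 was read at the 5' end of its gene. A peak list cannot distinguish sequence that is missing from the cells from sequence that is present without signal, and these 2 states cannot be told apart below.

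**Figure D1:**
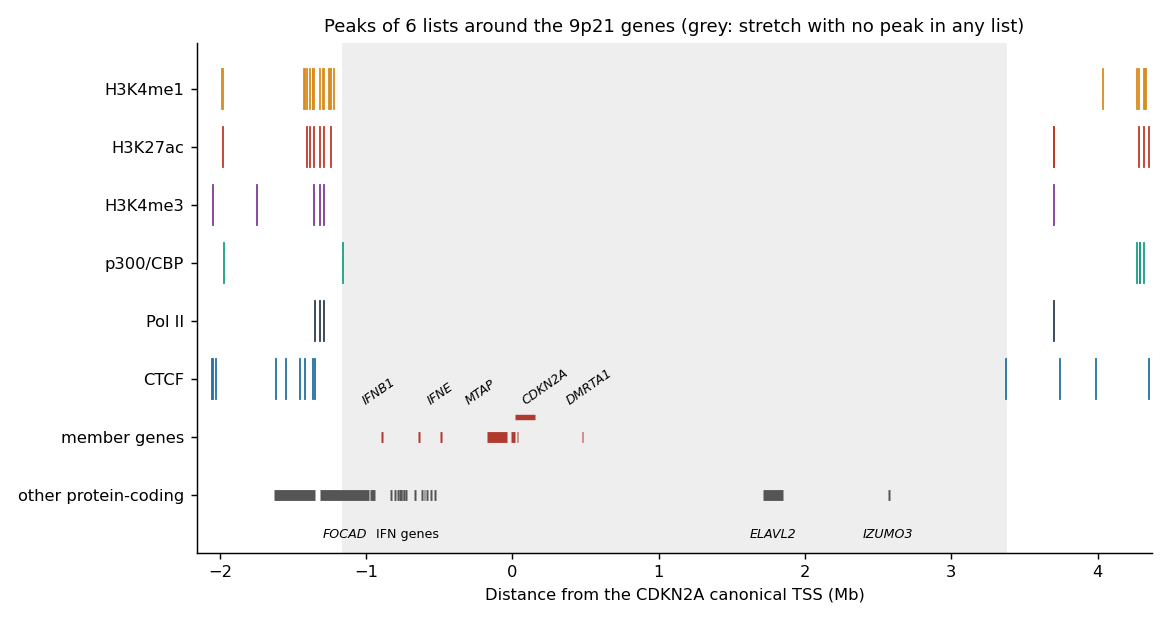
Peaks of the 6 lists (vertical lines, 1 row per list) and protein-coding genes (bars; members in red, with CDKN2B-AS1 drawn just above) against distance from the CDKN2A canonical TSS in Mb. The grey stretch of 4.53 Mb has no peak in any row, and peaks reappear on both sides of it.

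The upstream sequences of 4 members and of FOCAD, a gene whose promoter lies just outside the stretch, are printed here because they show what kind of sequence stood with and without peaks. Each run is the 250 bases before the canonical TSS in GRCh37 (hg19), read 5' to 3' on the strand of the gene, with CpG dinucleotides in capitals.
CDKN2A (p16INK4a start), chr9:21974857-21975106, minus strand: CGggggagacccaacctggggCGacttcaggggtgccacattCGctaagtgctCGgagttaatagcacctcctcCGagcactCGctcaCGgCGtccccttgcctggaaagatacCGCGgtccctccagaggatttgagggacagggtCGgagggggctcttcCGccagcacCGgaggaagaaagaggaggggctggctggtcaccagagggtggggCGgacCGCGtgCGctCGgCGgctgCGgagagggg
CDKN2B, chr9:22009305-22009554, minus strand: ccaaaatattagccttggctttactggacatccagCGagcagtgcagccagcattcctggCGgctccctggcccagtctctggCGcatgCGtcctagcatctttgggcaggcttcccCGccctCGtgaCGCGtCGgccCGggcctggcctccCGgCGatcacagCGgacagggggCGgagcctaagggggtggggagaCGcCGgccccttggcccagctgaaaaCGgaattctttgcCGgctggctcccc
MTAP, chr9:21802385-21802634, plus strand: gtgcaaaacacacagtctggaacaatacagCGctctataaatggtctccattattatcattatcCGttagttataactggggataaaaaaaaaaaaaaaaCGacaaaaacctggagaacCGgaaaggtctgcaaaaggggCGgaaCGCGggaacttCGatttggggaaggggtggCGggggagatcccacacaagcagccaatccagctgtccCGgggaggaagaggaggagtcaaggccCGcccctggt
IFNB1, chr9:21077942-21078191, minus strand: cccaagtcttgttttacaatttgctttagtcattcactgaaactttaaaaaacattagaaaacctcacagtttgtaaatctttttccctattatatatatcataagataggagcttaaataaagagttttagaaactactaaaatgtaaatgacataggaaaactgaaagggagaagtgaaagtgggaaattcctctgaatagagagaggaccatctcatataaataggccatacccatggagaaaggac
FOCAD (promoter outside the stretch), chr9:20684008-20684257, plus strand: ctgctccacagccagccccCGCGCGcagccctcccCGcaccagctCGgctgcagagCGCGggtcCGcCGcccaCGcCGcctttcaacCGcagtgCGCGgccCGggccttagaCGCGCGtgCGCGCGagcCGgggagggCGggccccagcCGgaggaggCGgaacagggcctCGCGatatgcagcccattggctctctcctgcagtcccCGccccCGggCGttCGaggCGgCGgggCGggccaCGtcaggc
The CDKN2A run held 20 CpGs, the CDKN2B run 18 and the MTAP run 11, against 35 in the run of FOCAD, which carried H3K4me3, H3K27ac and Pol II. The IFNB1 run, where the virus-inducible enhancer of this gene is known to lie, held 0 CpGs. CpG-dense and CpG-poor promoters of the region were therefore read separately.

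The cell cycle inhibitors were examined at the starts of all transcripts tagged basic in GENCODE, and at their canonical starts. CDKN2A (chr9:21967751-21995300, minus strand) had 10 TSSs in basic transcripts, from 21971331 to 21995300. They included the canonical p16INK4a start at 21974856 and the starts between 21994391 and 21995300, on the side of the p14ARF first exon. None of the 10 had a peak in a window of 3 kb or of 10 kb around it. The nearest peak before the p16INK4a start was 1.16 Mb away and the nearest after it 3.38 Mb away. CDKN2B (chr9:22002902-22009304, minus strand) had 2 TSSs and no peak at either, with 1.19 Mb and 3.34 Mb to the edges of the stretch. CDKN2B-AS1 (chr9:21994138-22128102, plus strand) had 6 TSSs in basic transcripts, and its canonical start at 21995132 was not among them. Its body of 134 kb, which includes all of these starts, was free of peaks throughout. The 1 kb around the canonical start of each of the 3 genes was CpG-rich, defined as at least 50% GC with an observed/expected CpG ratio of at least 0.6. The GC content was 62.6% at CDKN2A, 62.0% at CDKN2B and 62.3% at CDKN2B-AS1, and the CpG ratio was 0.782, 0.829 and 0.935.

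MTAP (chr9:21802635-21937650, plus strand) had 3 TSSs within a few bases of each other and no peak in its promoter or its body of 135 kb. Its start lay 986 kb from the beginning and 3.55 Mb from the end of the stretch, with 60.5% GC and a CpG ratio of 0.780. KLHL9 (chr9:21329664-21335403, minus strand), 519 kb into the stretch, had a CpG-rich start as well, with 53.3% GC and a ratio of 0.776. DMRTA1 (chr9:22446823-22455739, plus strand), at 1.63 Mb, reached 60.1% and 0.731. Both were without peaks in promoter and body. Over the 8 members, 25 TSSs of basic transcripts were read, and 0 of them had a peak of any list within a 3 kb or a 10 kb window.

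The interferon genes differed in sequence from these members and not in their peaks. All 16 type I interferon genes of the cluster were inside the stretch, and 0 of them had a CpG-rich start. IFNB1 (chr9:21077103-21077941, minus strand) had 38.2% GC and a CpG ratio of 0.192, and lay 262 kb from the start of the stretch, nearer to a peak than any other member. IFNE (chr9:21480838-21482312, minus strand), an interferon known from epithelia of the reproductive tract, had 31.3% GC and a ratio of 0.165 and lay 666 kb inside. Parts of this cluster are repeated, which reduces the share of reads that map uniquely. Of the 32-base words of the cluster, 83.2% occurred once in the reference genome, compared with 85.5% between MTAP and CDKN2B and 88.5% both in the whole stretch and in the peak-bearing part of the region before it. In the promoter windows of the interferon genes the share ran from 44.3% at IFNA4 to 100% at IFNB1 (median 76.7%), while CDKN2A had 90.7% and KLHL9 100%. Word uniqueness was read from the reference sequence, and its part in the absence of peaks was not tested.

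Other genes of the stretch lie between and beyond the members. HACD4, a dehydratase of very long chain fatty acid elongation, was the first whole gene inside it. Its TSS lay 215 kb from the edge and was CpG-rich, with 61.7% GC. MIR31HG, the host gene of miR-31, had the most GC-rich start of the genes named here (69.2%), with 100% unique words, and no peak in its promoter or its 180 kb body. The miRNA processed from it, which is known for effects on cell invasion, is shown from RefSeq (GRCh38.p14) with the seed, bases 2 to 8, in capitals.
hsa-miR-31-5p: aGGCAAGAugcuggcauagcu
MIR31 itself, at chr9:21512114-21512184 on the minus strand, lay 696 kb inside the stretch. Beyond the region the stretch held the starts of ELAVL2, a neuronal RNA-binding protein gene, and of IZUMO3, a sperm protein gene, neither of which was CpG-rich.

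Across the genome, most protein-coding promoters carried a peak. In 3 kb windows around the canonical TSS, 62.9% of all 19819 protein-coding genes had an H3K4me3 peak, 61.6% H3K27ac, 59.6% H3K4me1, 58.5% Pol II, 17.6% CTCF and 0.706% p300/CBP, and 72.2% had a peak of at least 1 list. The stretch has no peak by definition, so its promoters are not counted against these shares. The region was set by gene positions, and 2 of its 23 protein-coding promoters had a peak of any list (8.70%, 95% Wilson interval 2.42 to 26.8%). Intervals and limits cover counting error only and treat promoters as independent of each other. They are not, since 21 of the 23 lay in the same stretch. Of the 12917 CpG-rich promoters, 84.3% had H3K4me3, 81.4% H3K27ac, 77.7% Pol II, 72.5% H3K4me1, 21.4% CTCF and 0.488% p300/CBP, and 87.4% had a peak of any list. Of the 8 CpG-rich promoters of the region, those of MLLT3 and FOCAD had H3K4me3, H3K27ac and Pol II (25%, interval 7.15 to 59.1%), and those of HACD4, KLHL9, MTAP, CDKN2A, CDKN2B and DMRTA1 had no peak. Of the 6902 other promoters, 43.8% had a peak of any list (35.3% H3K4me1, 24.7% H3K27ac, 22.9% H3K4me3, 22.7% Pol II, 10.5% CTCF and 1.12% p300/CBP). In the region 0 of 15 did, which allows a share of up to 20%. These 15 were the type I interferon genes with a canonical TSS, so they are 1 gene family and not a sample of other promoters. The median share of unique words in their windows was 76.7%. For CTCF the region had 0 of 8 CpG-rich promoters (limit 37.5%) and 0 of 15 others (limit 20%), and for p300/CBP the same. These limits lie above the genome-wide shares of both lists, so within either class a difference was not detectable for CTCF or p300/CBP. Over all 23 promoters together the limit was 13.0% for both lists, below the genome-wide 17.6% for CTCF and above the 0.706% for p300/CBP. As 21 of the 23 lay in the stretch, which has no peak by definition, the pooled limit was not a separate test. Among lncRNA promoters the share with any list was 43.9% of 18592, and 1 of 11 in the region, that of FOCAD-AS1.

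**Figure D2:**
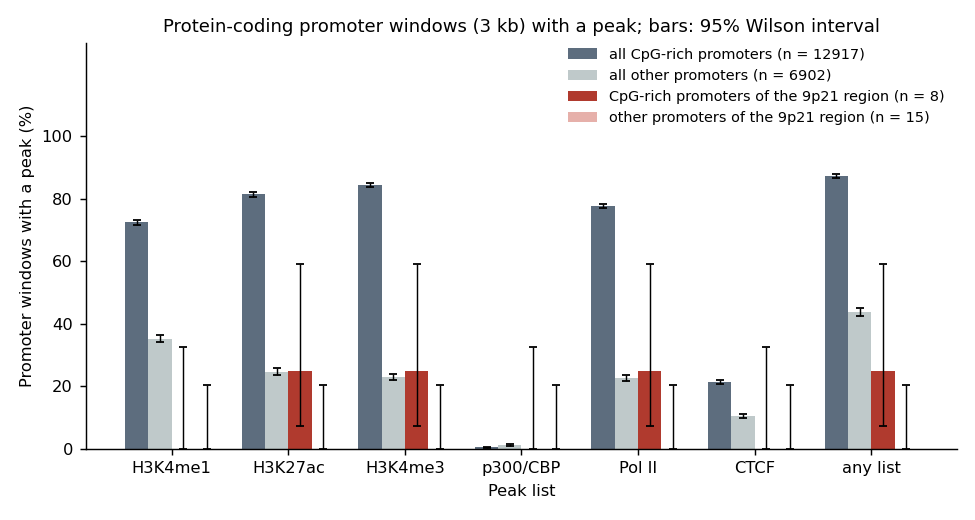
Share of 3 kb protein-coding promoter windows with a peak of each list, in percent, for all CpG-rich promoters, all other promoters, and the 8 CpG-rich and 15 other promoters of the 9p21 region, with 95% Wilson intervals. In the region 2 of 8 CpG-rich promoters have H3K4me3, H3K27ac and Pol II. The 15 others, all of type I interferon genes, are at 0 for every list. The intervals of the region reach above the genome-wide shares for CTCF and p300/CBP. They treat neighbouring promoters as independent, which they are not.

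The partners of the members in their pathways, which lie elsewhere in the genome, were read in the same way. They comprised 59 genes in 8 lists, and 52 of them had H3K4me3 at the promoter, 51 H3K27ac, 51 Pol II, 40 H3K4me1, 9 CTCF and 0 p300/CBP. Over all genes 62.9% of promoters, and 84.3% of the CpG-rich ones, had H3K4me3, so marked promoters were also the usual reading elsewhere. All 13 genes of the INK4, cyclin D and RB list carried H3K4me3, H3K27ac and Pol II. They included CDKN2C and CDKN2D, which encode the INK4 proteins p18 and p19, and the p16INK4a targets CDK4 and CDK6. The 3 marks were also present at 3 of 3 genes of the ARF and MDM2 list (MDM2, MDM4 and CDKN1A), at CDKN1B and CDKN1C, and at all 12 genes of methionine salvage and polyamine synthesis. That list holds PRMT5, the arginine methyltransferase inhibited by the substrate of MTAP, with its cofactor WDR77, and MAT2A and AMD1. Of the 8 Polycomb genes known for silencing at the INK4-ARF locus, among them EZH2, SUZ12, EED and BMI1, 8 had H3K4me3. Of the 5 genes of the CUL3 and KLHL list, 5 had H3K4me3 and 4 had H3K27ac. KLHL13, the adaptor that acts together with KLHL9 in mitosis, had H3K4me3 without H3K27ac or Pol II, while CUL3, KLHL21 and KLHL22 had the 3 marks.

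Promoters without a peak of any list occurred in 2 of these lists. The DMRT family had 0 of 6 promoters with a peak of any list, DMRT1, DMRT2, DMRT3 and DMRTA2 among them. The type I interferon system had H3K4me3 at 9 of 10 genes, including the receptor genes IFNAR1 and IFNAR2 and the kinases JAK1 and TYK2. The exception was IFNK, an interferon gene of keratinocytes on chromosome 9 outside the stretch, which had no peak and was named after its values were seen.

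**Figure D3:**
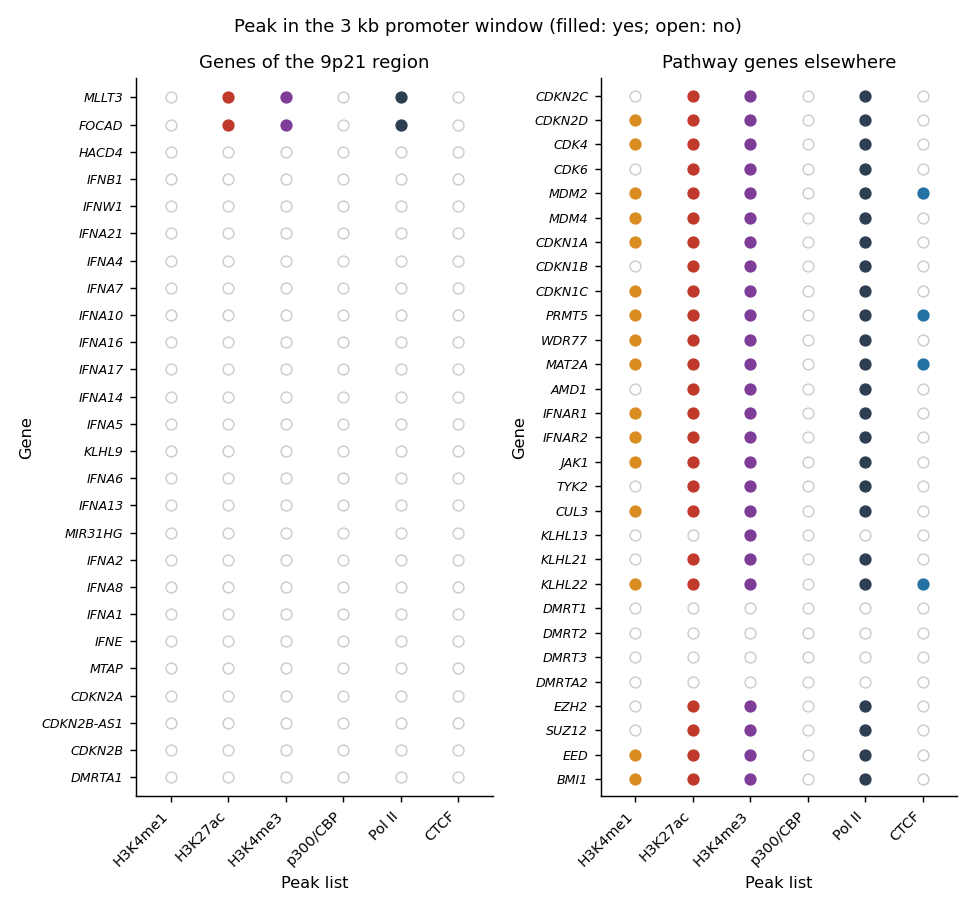
Presence (filled) or absence (open) of a peak of each list (columns) in the 3 kb promoter window of each gene (rows), for the genes of the 9p21 region in chromosomal order (left) and for up to 4 genes of each pathway list elsewhere (right). On the left only MLLT3 and FOCAD, before the stretch, have filled points, and on the right only the 4 DMRT genes have none.

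At the telomeric end of the region the promoters of 2 protein-coding genes and 1 lncRNA gene carried peaks. MLLT3, which encodes the elongation factor subunit AF9, had H3K4me3 over 5000 bp and H3K27ac over 4250 bp at its promoter, with a Pol II peak of 600 bp. At the canonical start of FOCAD, the gene of the focal adhesion protein focadhesin, H3K4me3 and H3K27ac each covered 2650 bp and Pol II 1400 bp. Neither of these windows held H3K4me1, p300/CBP or CTCF. The lncRNA gene FOCAD-AS1, which starts at 20684687 and overlaps the FOCAD start on the minus strand, had H3K4me1 in its window beside the same 3 marks. The peaks cannot be assigned to 1 of the 2 overlapping genes. The whole 239 kb had 11 H3K4me1, 5 H3K27ac, 3 H3K4me3, 3 Pol II, 2 CTCF and 1 p300/CBP peaks. Per Mb these were 105 peaks, compared with 73.7 on the rest of chromosome 9 and 82.2 over the genome. With 1 Mb instead of 500 kb added on either side, the sequence outside the stretch had 46.0 peaks per Mb, below both, so the order depends on the flank chosen. At the genome-wide density a stretch of 4.53 Mb would hold 373 peaks, of which 141 H3K4me1, 65.6 H3K27ac, 63.2 CTCF, 41.6 Pol II, 39.3 H3K4me3 and 21.9 p300/CBP. This mean takes no account of the GC content of the stretch (36.7%) or of its genes. Among all windows of this length outside the stretch, the median was 308 peaks and the fewest were 10.

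The stretch began inside FOCAD. The canonical FOCAD transcript has 44 exons, and the last peak stood in intron 11, 132 kb after its start. The 33 remaining exons and 180 kb of the gene lay in the stretch. The first bounding peak was a p300/CBP peak of 100 bp, and the second, 4.53 Mb further, a CTCF peak of 100 bp in intergenic sequence. They are printed whole, on the plus strand of GRCh37 and without capitals, because the 2 of them set the length of the stretch.
p300/CBP peak before the stretch, chr9:20816051-20816150: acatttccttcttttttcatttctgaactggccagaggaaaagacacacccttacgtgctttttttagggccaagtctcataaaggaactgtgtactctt
CTCF peak after the stretch, chr9:25350151-25350250: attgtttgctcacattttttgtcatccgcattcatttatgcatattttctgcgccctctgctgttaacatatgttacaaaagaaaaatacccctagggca
The lists did not end at the same place. The last H3K4me1 peak stood 60.0 kb before the stretch, the last H3K27ac peak 83.6 kb, the last H3K4me3 peak 130 kb, the last Pol II peak 131 kb and the last CTCF peak 191 kb. On the centromeric side H3K4me3, H3K27ac and Pol II resumed together 327 kb after the stretch at the promoter of TUSC1, followed by H3K4me1 at 663 kb and p300/CBP at 894 kb. Taken list by list, the distance without a peak was 4.73 Mb for CTCF, 4.94 Mb for H3K27ac, 4.99 Mb for H3K4me3 and for Pol II, 5.26 Mb for H3K4me1 and 5.43 Mb for p300/CBP. Without the p300/CBP list, which rests on a single library, the stretch was 4.59 Mb long, and without the CTCF list 4.86 Mb.

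CTCF was read against its motif, since its sites are set largely by sequence. The pattern searched, on both strands, was CCA, any 2 bases, AG, any 2 bases and GGC. The stretch held 74 matches (16.3 per Mb, against 26.8 per Mb in the genome), none of which can lie in a CTCF peak, since the stretch was defined without one. In the region, which was set by gene positions, 0 of 47 matches lay in a CTCF peak, which would allow up to 6.38% if matches were independent. Over chromosomes 1 to 22 and X, 14.5% of 75982 matches lay in a CTCF peak (95% Wilson interval 14.3 to 14.8%). Of the 47, only 4 lay in the part of the region before the stretch, and 0 of these 4 were in a CTCF peak, which allows up to 75%. The others lay in the stretch, so 0 of 47 largely repeats its definition and was not a separate test. With a stricter pattern, CCA, any 2 bases and AGGGGGC, which is a subset of the first, 42.7% of 5539 matches in the genome were in a CTCF peak. The stretch held 7 such matches, which are shown because this pattern was in a peak more often over the genome than the first. They are printed with 10 bases on either side, with the 12 bases of the motif in capitals. The nearest matches of the same pattern that did lie in a CTCF peak follow.
In MIR31HG, chr9:21401639-21401650, plus strand: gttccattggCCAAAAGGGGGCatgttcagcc
In DMRTA1, chr9:22455510-22455521, minus strand: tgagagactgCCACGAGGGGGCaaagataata
In the lncRNA gene ENSG00000284418, chr9:23322568-23322579, minus strand: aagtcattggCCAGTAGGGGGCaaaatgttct
In ENSG00000284418, further on, chr9:23360520-23360531, minus strand: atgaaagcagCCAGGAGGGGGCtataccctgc
In the lncRNA gene ENSG00000283982, chr9:23554899-23554910, minus strand: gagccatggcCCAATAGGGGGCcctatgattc
In ENSG00000283982, further on, chr9:23589705-23589716, plus strand: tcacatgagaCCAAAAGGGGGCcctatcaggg
Intergenic, chr9:25003888-25003899, minus strand: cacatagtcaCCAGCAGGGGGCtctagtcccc
In a CTCF peak before the stretch, chr9:19464842-19464853, plus strand: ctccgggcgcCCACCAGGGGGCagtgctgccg
In a CTCF peak after the stretch, chr9:26723675-26723686, plus strand: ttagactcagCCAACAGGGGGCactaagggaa
The last 2 lay in intergenic CTCF peaks of 250 bp and 400 bp, 1.35 Mb before and 1.37 Mb after the stretch. A match describes the letters only, and 26.7% of the 39514 CTCF peaks held a match of the first, looser pattern.

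Measured against all other sequence, the 9p21 stretch was the longest. Of 121738 stretches between neighbouring peaks of the 6 lists, leaving out those with 1% or more undetermined bases, the median was 7.55 kb and the 99th percentile 205 kb. The stretch of 4.53 Mb was 2.41 times as long as the next one, which measured 1.88 Mb on chromosome 7 and held 1 TSS. It was also first by protein-coding TSSs, with 23 against at most 12 in any other stretch. The stretches with 12 held olfactory receptor genes of the OR6C family on chromosome 12 and FAM90A and beta-defensin genes on chromosome 8. By CpG-rich TSSs it came second, with 6, after a stretch of 682 kb at the end of the long arm of chromosome X with 7, around F8A2, TMLHE and VAMP7. Its first place by length depended on the CTCF list. Without CTCF, a stretch of 4.91 Mb at 9p23 (chr9:7799901-12708300), with 2 TSSs and 13 CTCF peaks, came before the 4.86 Mb around CDKN2A. These comparison genes were named after their values were seen.

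**Figure D4:**
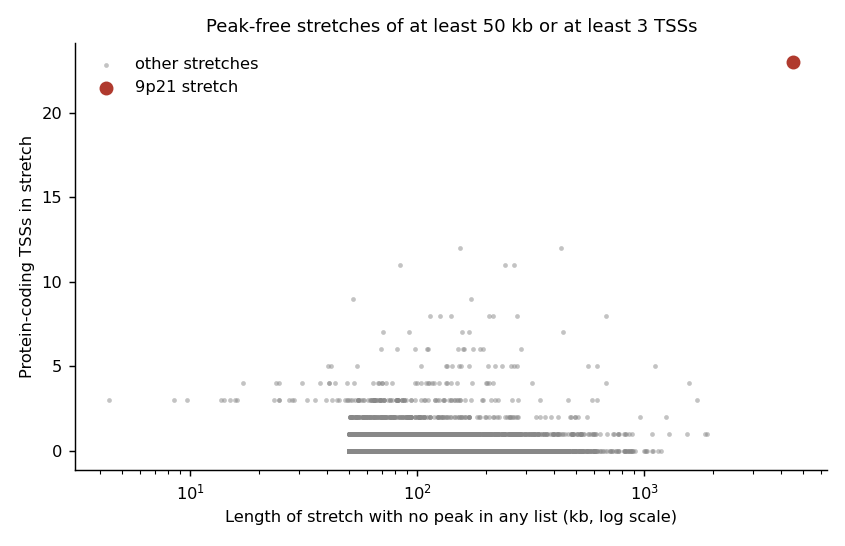
Number of protein-coding TSSs against length in kb (log axis) for every stretch without a peak in any list that is at least 50 kb long or holds at least 3 TSSs. The 9p21 stretch, in red, has the greatest length and the most TSSs (23), and the others reach 1.88 Mb and 12 TSSs.

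Sequence of the same length elsewhere was compared by its number of peaks. Windows of 4.53 Mb were moved over the genome in steps of 50 kb. The longest other stretch measured 1.88 Mb, so no window of this length elsewhere could be free of peaks. The counts of 0 below follow from that, and only the numbers of peaks add to the ranking by length. Of the 45736 windows outside the stretch, 21786 held at least 23 protein-coding TSSs, so this number of TSSs was common and not a mark of gene-dense sequence. Among these 21786, 0 had no peak (0%), the fewest peaks were 80 and the median 455. The window with 80 peaks was on chromosome X (chrX:71600001-76134000) and held 24 TSSs. Of 39373 windows with at least 6 CpG-rich TSSs, again 0 had no peak, and the fewest were 23. Without any condition on genes, the 45736 windows elsewhere had at least 10 peaks each. The poorest, with 1 TSS, was at 9p23 (chr9:7800001-12334000), and all of its 10 peaks were CTCF. Every one of the 45736 windows held at least 7 CTCF peaks, whereas windows without H3K4me1 (63), H3K27ac (42), H3K4me3 (9), Pol II (504) or p300/CBP (625) did occur. The windows overlap and are not independent of each other.

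**Figure D5:**
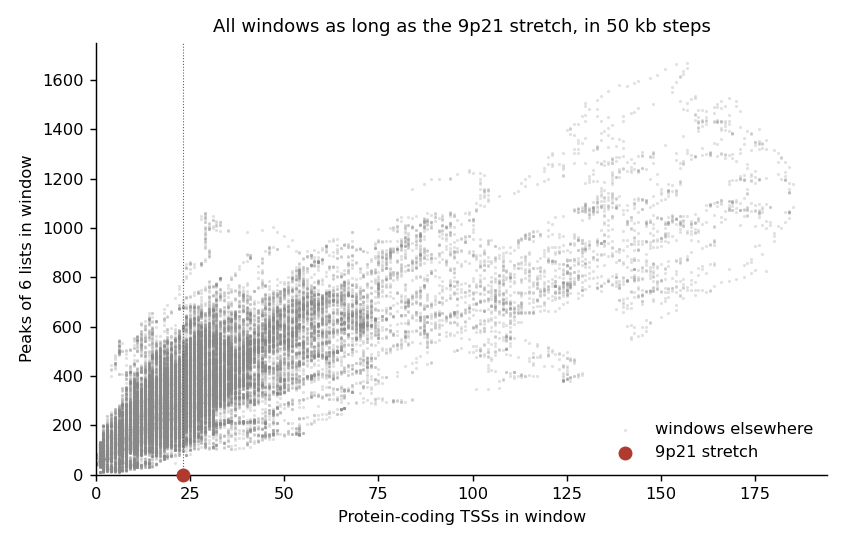
Peaks of the 6 lists against protein-coding TSSs in each window of 4.53 Mb, with all windows elsewhere in grey and the 9p21 stretch in red at 23 TSSs (dotted line) and 0 peaks. The windows with at least 23 TSSs start at 80 peaks.

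Smaller windows did find other empty places with genes. Of 500 kb windows with at least 3 protein-coding TSSs, 20 of 23502 outside the stretch had no peak (0.0851%). These 20 fell into 7 places. They held the repeated PRR20 genes on chromosome 13, SNRPN and SNURF on chromosome 15, ZNF208 and other zinc finger genes on chromosome 19, MAGEB genes, LPAR4 with its neighbours and SPANX genes on chromosome X, and the end of that chromosome. With at least 3 CpG-rich TSSs, 12 of 17659 windows outside the stretch (0.0680%) were free of peaks. Olfactory receptor genes, which are inactive in most tissues, gave a further comparison among gene clusters. In 7 runs on chromosome 11, with 109 genes in 3.33 Mb, there were 71 peaks (21.3 per Mb), of which 34 were H3K4me1, 19 CTCF, 13 H3K4me3, 5 H3K27ac and 0 Pol II or p300/CBP. The longest stretch without a peak in these runs was 206 kb, within runs of 386 to 549 kb, so their length alone kept it far below that at 9p21. This comparison was added after the values at 9p21 were seen.

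The identity of the cells was checked with marker promoters. H3K27ac was present at 8 of 8 mesenchymal or basal B markers, VIM and CD44 among them, and H3K4me3 at 7 of 8. ESR1, GATA3, CDH1, EPCAM and PTPRC had no peak of any list, while 4 of 7 luminal markers had H3K27ac.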

How the data were processed

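ChIP-seq reads of MDA-MB-231 cells had been aligned to hg19 by the authors. The study's methods name BWA-backtrack, and the submitters' processing notes name Bowtie2. Uniquely mapped reads were binned at 50 bp by the authors, replicates of each antibody were merged (the p300/CBP library came from pooled immunoprecipitations), and peaks were called by thresholds in a genome browser. The thresholds were 30 for H3K4me1 and H3K4me3, 50 for H3K27ac, Pol II and CTCF, and 60 for p300/CBP, each with a minimum run and a maximum gap. Per the names of the deposited files, background was subtracted before thresholding for the 3 histone marks and p300/CBP. The deposited lists hold start and end only, without height, p-value or depth. The p300/CBP list held 13984 peaks, well above the number the study reports under the same named settings, and the reason is unknown. A threshold on merged signal can miss weak binding, and reads from repeated sequence are lost. No column of per-sample values was left unmapped (0).

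The lists were compared with GENCODE release 44 on hg19 and with the GRCh37 sequence in Python 3.11.15 with NumPy 2.4.6 and SciPy 1.17.1. A peak counted where it shared at least 1 bp with a window. Stretches, windows and motif matches were counted exhaustively. The 32-base words were sampled every 100 bases, and every 10 bases in promoter windows and peaks. Each sampled word was looked up on both strands of the whole reference. On simulated data, 0 of 3400 comparisons with known answers came out wrong. Named genes were the 8 members, every protein-coding gene with a promoter in the region, MIR31HG and MIR31, and the first 4 of each pathway list. Of these lists 1 gene is not reported here, and comparison genes outside this rule were named after their values were seen. The members and lists were chosen with earlier results of these data known. All comparisons are descriptions, with no test.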

Additional observations from a re-analysis of the deposited data

How the results depend on the processing

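No replicate could be left out, since each list pools its replicates. No paired analysis was possible because of this pooling. The stretch around CDKN2A measured 4.53 to 4.95 Mb under all 9 settings tried for it, held 23 TSSs under each, and remained first by length except without the CTCF list, where it ranked 2. The members had no peak with 3 kb or 10 kb windows. Counts of 0 at promoters and motif matches inside the stretch follow from its definition and say nothing about stability. Of 55 alternatives over 13 results, 39 were within the limits set and 16 moved the value. The share of windows without a peak was 0.0851% with 500 kb windows holding at least 3 protein-coding TSSs. It was 0.0680% with 500 kb windows holding at least 3 CpG-rich TSSs, an alternative added after seeing the data. With windows of 4.53 Mb a share of 0% was fixed by the length of the other stretches. In a further setting, peaks narrower than the median width in their list were dropped. The fewest peaks in a window of 4.53 Mb with at least 23 TSSs then fell to 36. The genome-wide promoter share fell to 48.6% for H3K27ac and 55.2% for H3K4me3, and the density before the stretch to 46.0 per Mb. Adding 1 Mb instead of 500 kb on either side also gave 46.0 per Mb, below the 73.7 of the rest of chromosome 9 and the 82.2 of the genome instead of above them. The H3K27ac share of promoters was 59.5% with 1 kb windows, 65.4% with 10 kb windows and 63.7% with all basic TSSs, and the H3K4me3 share 61.4%, 65.8% and 64.2%. The share of motif matches in a CTCF peak was 42.7% with the stricter motif and 15.4% when a peak within 200 bp counted. The depth is unknown, so binding below the authors' thresholds was not detectable here.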

Other observations

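A second long stretch without peaks lay on the same chromosome arm, 2.68 Mb nearer to the telomere than the one around CDKN2A. It measured 1.71 Mb (chr9:16426151-18137950), the fourth longest among all stretches, and held 3 protein-coding TSSs, all CpG-rich: those of BNC2, which encodes a zinc finger protein, CNTLN, the gene of the centriole protein centlein, and SH3GL2, which encodes the endocytic protein endophilin A1. It contained 44 matches of the CTCF pattern described above and 3 of its stricter form. The 2 stretches between these in length, on chromosomes 7 and X, measured 1.88 and 1.84 Mb and held 1 TSS each, of AUTS2 and GRIA3. These genes were named after their values were seen.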
